A study of Mus musculus and Rattus norvegicus with 53 samples.

Results

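Rgs8, Fgd3, Baalc, Mmd2, Lrrtm4, Fgf4 and Extl1 were followed in sorted Schwann cells (SCs) of the intact and cut sciatic nerve. They are 7 of the 24016 genes in the mouse counts. Rgs8, Fgd3 and Baalc were chosen because they were nearly absent from pooled SCs of intact nerves and present in pooled SCs of the distal stump. Mmd2, Lrrtm4, Fgf4 and Extl1 were chosen for the opposite pattern. The pooled libraries therefore describe the choice, and differences were tested only in the libraries from single nerves, which the choice did not use.

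SCs ensheath the axons of peripheral nerves, and many of them make myelin. When a nerve is cut, the SCs of the distal stump lose contact with living axons, lower their myelin genes and become progenitor-like repair cells. SCs that leave the stumps also migrate into the bridge, the new tissue that forms between the cut ends. The 7 genes are not a single pathway: Rgs8 and Fgd3 act on signalling by G proteins and small GTPases, Baalc and Mmd2 are membrane-associated proteins, Lrrtm4 is an adhesion molecule, and Fgf4 and Extl1 belong to fibroblast growth factor signalling and heparan sulfate synthesis.

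RNA-seq libraries were made from sorted tdTomato-positive SCs of intact nerves (iSCs), distal stumps (dSCs) and bridges (bSCs). In the pooled experiment each region had 4 libraries, the injured ones from day 6, and each library held the nerves of 3 mice. The time course had 35 single-nerve libraries, 5 from uncut nerves and 3 per region and day after the cut, with the distal stump taken on day 1, day 2, day 4, day 6, day 8 and day 10 and the bridge from day 4 onwards on the same days. Every group carried the same alleles, a Cre driven by the P0 promoter (P0A-Cre) and a Rosa26 tdTomato reporter, so that a sorted cell was any cell of the SC lineage in which this Cre had acted. The mice were males and females 6 to 8 weeks old, and iSCs came from the uncut nerve on the other side. The paper included 4 intact single nerves in its own analysis, whereas all 5 were used here.

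Counts on genes ran from 11435463 to 22617054 per pooled library and from 9240883 to 22426128 per single-nerve library. In the single nerves, 4 libraries had the fewest detected genes (10042 to 11138, against 11983 in the next and up to 15815). Of these, 2 were iSCs, libraries 0 and 1. The summed level of 6 myelinating SC markers was 6887 to 32948 CPM (counts per 1e6 counts, scaled as given below) in single-nerve iSCs and 843 to 11057 CPM in dSCs, and 4 of the 6 passed as lower in dSCs. Markers of other cells were present too. The sum of 8 macrophage markers was 247 to 1006 CPM in iSCs, 1828 to 11746 CPM in dSCs and 780 to 10097 CPM in bSCs, no macrophage marker was at 0 throughout, and 7 of 8 passed as higher in dSCs. In the pooled libraries the macrophage sum was 180 to 4497 CPM in iSCs, 7817 to 12432 CPM in dSCs and 1789 to 5322 CPM in bSCs. The sum of 5 endothelial markers was 1290 to 3080 CPM in iSCs and 167 to 1198 CPM in dSCs of single nerves, and 1 of 5 endothelial and 1 of 5 fibroblast markers passed as lower in dSCs. The injured and intact groups therefore differed in transcripts of macrophages and of other cells as well, and the part of these in the results on the 7 genes was not tested. In sorted bulk cells, fewer cells of a type and less RNA per cell cannot be told apart.

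In the following, levels are CPM scaled by TMM factors, within the pooled and the single-nerve experiment separately. A floor of 3 counts corresponded to 0.135 to 0.258 CPM in a pooled library and 0.130 to 0.579 CPM in a single-nerve library. Folds between groups are ratios of summed counts per effective library size. Against a group in which every library was at 0, the fold is a lower bound set by 3 counts over that group. It bounds the counts and not the RNA of the cells, since transcripts lost before sequencing leave no count. Intervals on ratios are exact 95% counting intervals and, because Smart-seq2 amplifies cDNA by PCR, cover counting error only. Libraries are named by region, day and the replicate number of the labels.

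Rgs8 (NCBIM37 chr1:155500155-155544797, plus strand) encodes a regulator of G protein signalling, a protein that speeds up GTP hydrolysis by G alpha subunits. It had no count in the 4 pooled iSC libraries, and 18.9, 10.7, 29.03 and 28.6 CPM in the pooled dSC libraries (mean 21.8 ± 8.77, SD, n = 4). The pooled bSC libraries held 2.24, 2.63, 23.7 and 10.3 CPM. Rgs8 was thus in every pooled library of injured nerve and in no pooled iSC library, at least 417-fold higher in dSCs and at least 163-fold higher in bSCs.

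Fgd3 (chr13:49356923-49415680, minus strand) encodes a guanine nucleotide exchange factor of the FGD family, which activates Cdc42. It had no count in pooled iSCs and 30.9, 13.5, 16 and 11.9 CPM in pooled dSCs (mean 18.1 ± 8.72, SD, n = 4), at least 346-fold higher. In pooled bSCs it was 0.0448, 0.366, 0 and 0 CPM, which was 206-fold below pooled dSCs. Fgd3 was the member of the distal-on set that the pooled bridge hardly contained, at a total of 6 counts over 4 libraries.

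Baalc (chr15:38764688-38782810, plus strand) encodes a small lipid-anchored protein found in brain and in leukaemic blasts. It had no count in pooled iSCs and 5.51, 19.5, 21.4 and 22.4 CPM in pooled dSCs (mean 17.2 ± 7.89, SD, n = 4), at least 336-fold higher. The pooled bSC libraries held 3.41, 2.19, 0 and 3.73 CPM, 6.44-fold below dSCs. The annotation places Gm17265 on the opposite strand within Baalc, and since the library kit did not mark strand their reads cannot be told apart.

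Mmd2 (chr5:143038319-143084754, minus strand) encodes a multi-pass membrane protein of the PAQR family, which resides in the Golgi. It had 84.6, 196, 40.7 and 42.5 CPM in pooled iSCs (mean 90.9 ± 72.8, SD, n = 4) and no count in pooled dSCs, at least 1889-fold lower. In pooled bSCs it was 0, 13.7, 0.0859 and 0.0466 CPM, so that a single bridge library held nearly all of its counts. Mmd2 had the highest level of the 4 distal-off genes in pooled iSCs, also per kilobase of exon (27.5 ± 22 CPM per kb, SD, n = 4).

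Lrrtm4 (chr6:79968871-80760137, plus strand, a span of 791267 bases) encodes a leucine-rich repeat transmembrane protein that organizes excitatory synapses by binding neurexins and heparan sulfate proteoglycans. Pooled iSCs held 64.4, 140, 51.8 and 10.8 CPM (mean 66.8 ± 53.9, SD, n = 4), or 10.9 ± 8.77 CPM per kb of exon. It had no count in pooled dSCs, at least 1385-fold lower, and 0, 10.0, 3.27 and 4.52 CPM in pooled bSCs. Lrrtm4 was thus lost from the pooled distal stump but kept at a low level in 3 of 4 pooled bridge libraries. Gm4409 is annotated on the opposite strand within Lrrtm4, and reads of the pair cannot be told apart.

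Fgf4 (chr7:152047291-152051148, plus strand) encodes a secreted fibroblast growth factor. It had 47.3, 44.6, 45.2 and 23.2 CPM in pooled iSCs (mean 40.1 ± 11.3, SD, n = 4), or 13.2 ± 3.73 CPM per kb of exon, and no count in any pooled dSC or bSC library. It was at least 746-fold lower in dSCs and at least 939-fold lower in bSCs.

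Extl1 (chr4:133912287-133939765, minus strand) encodes a glycosyltransferase of the exostosin family, which adds N-acetylglucosamine to heparan sulfate chains. It had 25.6, 17.3, 21.7 and 8.79 CPM in pooled iSCs (mean 18.3 ± 7.20, SD, n = 4), or 4.23 ± 1.66 CPM per kb of exon, and no count in pooled dSCs or bSCs. The lower bounds were 335-fold in dSCs and 422-fold in bSCs. Per kb of exon the distal-on genes reached 6.89 ± 3.16 CPM for Baalc, 3.12 ± 1.26 CPM for Rgs8 and 3.01 ± 1.45 CPM for Fgd3 in pooled dSCs (SD, n = 4).

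**Figure D1:**
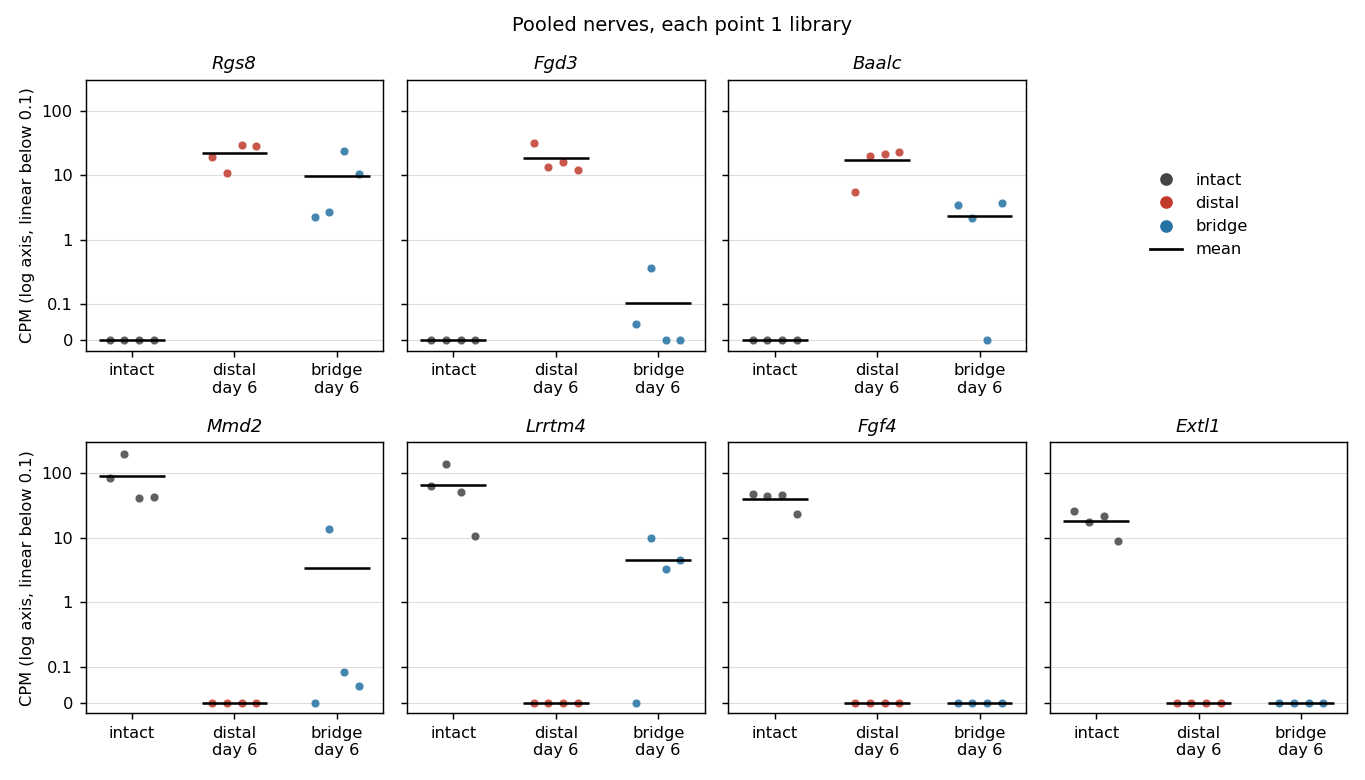
Level of each gene in the 12 pooled libraries (CPM, log axis that is linear under 0.1) by region, with 1 point per library and the bar at the group mean. Rgs8, Fgd3 and Baalc are at 0 in all 4 iSC libraries, and Mmd2, Lrrtm4, Fgf4 and Extl1 at 0 in all 4 dSC libraries.

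All 7 genes were at 0 in every library on their absent side and had at least 10 counts in every library on the other. Of all 24016 genes, 17 were at 0 in pooled iSCs with at least 10 counts in every pooled dSC library, the 3 distal-on genes among them, and 41 showed the reverse, the 4 distal-off genes among them. Groups that did not overlap between pooled iSCs and dSCs were found for 17% of the 13751 genes above the filter on low counts. Because the genes were chosen on these values, nothing more is read from them.

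In the single nerves all 7 genes passed the filter on low counts, but none of them was as cleanly split as in the pools. Differences were tested with edgeR's quasi-likelihood test over 15519 genes with Benjamini-Hochberg adjustment. Averaged over the days, 2 of the 7 passed an adjusted p of 0.05 in dSCs against iSCs, both lower (Mmd2 and Fgf4), where 4.29% of all genes passed. Both had days on which every dSC library was at 0, where a fitted log2 change depends on the prior count of the fit and is not given here. With 1 term per region, neither dSCs nor iSCs were at 0 throughout for these genes. In that fit 0 of the 7 passed in dSCs against iSCs, where 358 of the 15519 genes passed. The main fit, with 1 term per region and day, passed 3 of the 7 in bSCs against iSCs (Rgs8 higher, Mmd2 and Fgf4 lower), where 9.34% passed. Rgs8 was at 0 in every iSC library and Fgf4 in every bSC library, so these calls rest on a group at 0. On the single days, 0 of the 7 passed at day 1 (0.18% of all genes), day 2 (0.445%), day 4 (1.73%), day 6 (0.554%), day 8 (0.303%) or day 10 (0.354%). DESeq2 passed 1, 0, 3, 2, 2 and 1 of the 7 on these days, where it passed 334, 475, 1471, 861, 398 and 446 of the 15519 genes. Rgs8 was among the members passed on each day with a call, including day 1, where it had 2 counts in all.

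Rgs8 had no count in the 5 iSC libraries of single nerves. In dSCs it was 0.099, 0 and 0 CPM at day 1, 0 in all 3 libraries at day 2, and 2.52, 0 and 0 CPM at day 4. It then reached 78.0, 15.4 and 2.33 CPM at day 6, 61.8, 11.2 and 22.7 CPM at day 8, and 0.188, 6.21 and 7.17 CPM at day 10. Rgs8 was detected in 9 of 9 dSC libraries of days 6 to 10 and in 1 of 6 of days 1 and 2, where 2 counts were its whole signal. The libraries of days 6, 8 and 10 all lay above those of iSCs, though the libraries of a day spread widely.

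The summed level of Rgs8 at days 6 to 10 was at least 519-fold that of iSCs, and 1000-fold that of days 1 and 2 (277 to 8261). The edgeR adjusted p against iSCs was 0.0812 at day 6, 0.117 at day 8 and 0.282 at day 10. The distal average of Rgs8 could not be estimated in this fit, because every library of intact nerve and of day 2 was at 0. With 1 term per region in place of 1 per region and day, its edgeR adjusted p was 0.1. An exact permutation test of mean log2 CPM, 18 dSC against 5 iSC libraries, gave a difference of 3.36 and a two-sided p of 0.0471.

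In single-nerve bSCs, Rgs8 was 3.61, 0 and 0.169 CPM at day 4, 5.61, 17.6 and 0 CPM at day 6, 0, 0 and 60.1 CPM at day 8, and 0, 1.95 and 0 CPM at day 10. It was present in 6 of 12 bSC libraries. The edgeR test of the bridge average against iSCs passed with an adjusted p of 0.0472. It rose to 0.0744 with 1 term per region and 0.112 without the 4 libraries of few genes. All the iSC libraries were at 0, so this call is no support for a change. By exact permutation of 12 against 5 libraries the difference was 2.59 and p = 0.149.

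Fgd3 was nearly absent from single-nerve iSCs, at 0, 0, 0, 0.102 and 0.051 CPM, a total of 3 counts. In dSCs it was 0.594, 0 and 3.71 CPM at day 1, 0, 0.763 and 3.36 CPM at day 2, and 13.1, 1.47 and 0 CPM at day 4. It was 8.46, 10.9 and 13.8 CPM at day 6, 10.1, 7.32 and 14.1 CPM at day 8, and 0, 4.31 and 9.85 CPM at day 10. All 3 libraries of day 6 and of day 8 lay above the iSC libraries, and relative to its mean Fgd3 varied least between nerves on these days. Fgd3 was detected in 14 of 18 dSC libraries, 4 of them among the 6 of days 1 and 2.

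Over all dSCs, Fgd3 was 143-fold higher than in iSCs by its summed counts (49.0 to 696), 27.2-fold at day 1 (8.83 to 136) and 265-fold at day 6 (90.3 to 1291). In the edgeR fit the distal average was 6.55 higher on the log2 scale (SE 2.32) with an adjusted p of 0.105, and no single day passed. DESeq2 gave an adjusted p of 0.0042, and the exact permutation test a difference of 3.85 in mean log2 CPM with p = 0.00749, 18 against 5 libraries.

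In bSCs Fgd3 was 0, 2.03 and 0 CPM at day 4, 0.0813, 10.3 and 0 CPM at day 6, 0, 3.77 and 4.38 CPM at day 8, and 0, 0 and 8.28 CPM at day 10. It was present in 6 of 12 bSC libraries, and the edgeR adjusted p of the bridge average against iSCs was 0.113. In dSCs of days 4 to 10 its summed level was 3.54-fold that of bSCs.

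Baalc was at 0 in 4 of the 5 single-nerve iSC libraries and at 4.69 CPM in iSC library 5. That library had the highest iSC sums of macrophage (1006 CPM, against 247 to 272 CPM in the other 4), mural (4251 CPM) and T cell markers (8.46 CPM). Its endothelial and fibroblast sums (3080 and 22348 CPM) were also the highest, though close to those of library 0 (2906 and 21145 CPM). Its sums of myelinating SC markers (6887 CPM) and of SC lineage markers (52.7 CPM) were the lowest of the iSC libraries. Its sums of neuron markers (0.306 CPM) and of markers of SCs of the injured nerve (653 CPM) were not the highest. The part of such cells in this Baalc value was not tested. In dSCs Baalc was 2.48, 0 and 2.68 CPM at day 1. It was 13.1, 7.44 and 3.58 CPM at day 2, and 3.20, 15.2 and 0.874 CPM at day 4. It was 14.4, 0 and 15.5 CPM at day 6, 6.47, 11.3 and 21.1 CPM at day 8, and 17.9, 16.6 and 23.4 CPM at day 10. Baalc was the most widely detected of the 7 genes after injury, in 16 of 18 dSC and 11 of 12 bSC libraries. Its dSC libraries of days 8 and 10 lay wholly above the iSC libraries.

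The summed level of Baalc was 1.31-fold that of iSCs at day 1, 15.1-fold at day 10 and 7.18-fold over all dSCs. The distal average had an edgeR adjusted p of 0.305. Without iSC library 5, the only iSC library with Baalc, the edgeR adjusted p became 0.0188. All the iSC libraries left were then at 0, so this call is no support for a change. Leaving out any other single library did not bring the adjusted p under 0.05. By exact permutation the difference was 4.22 in mean log2 CPM and p = 0.00571, 18 against 5 libraries.

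In bSCs Baalc was already 19.3, 13.8 and 8.02 CPM at day 4. It was 11.6, 14.7 and 0.0644 CPM at day 6, 0.791, 5.78 and 12.6 CPM at day 8, and 13.7, 7.02 and 0 CPM at day 10. The edgeR adjusted p of the bridge average against iSCs was 0.218, and 0.0109 without iSC library 5, which again left every iSC library at 0. Exact permutation, 12 against 5 libraries, gave 4.03 and p = 0.0084.

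**Figure D2:**
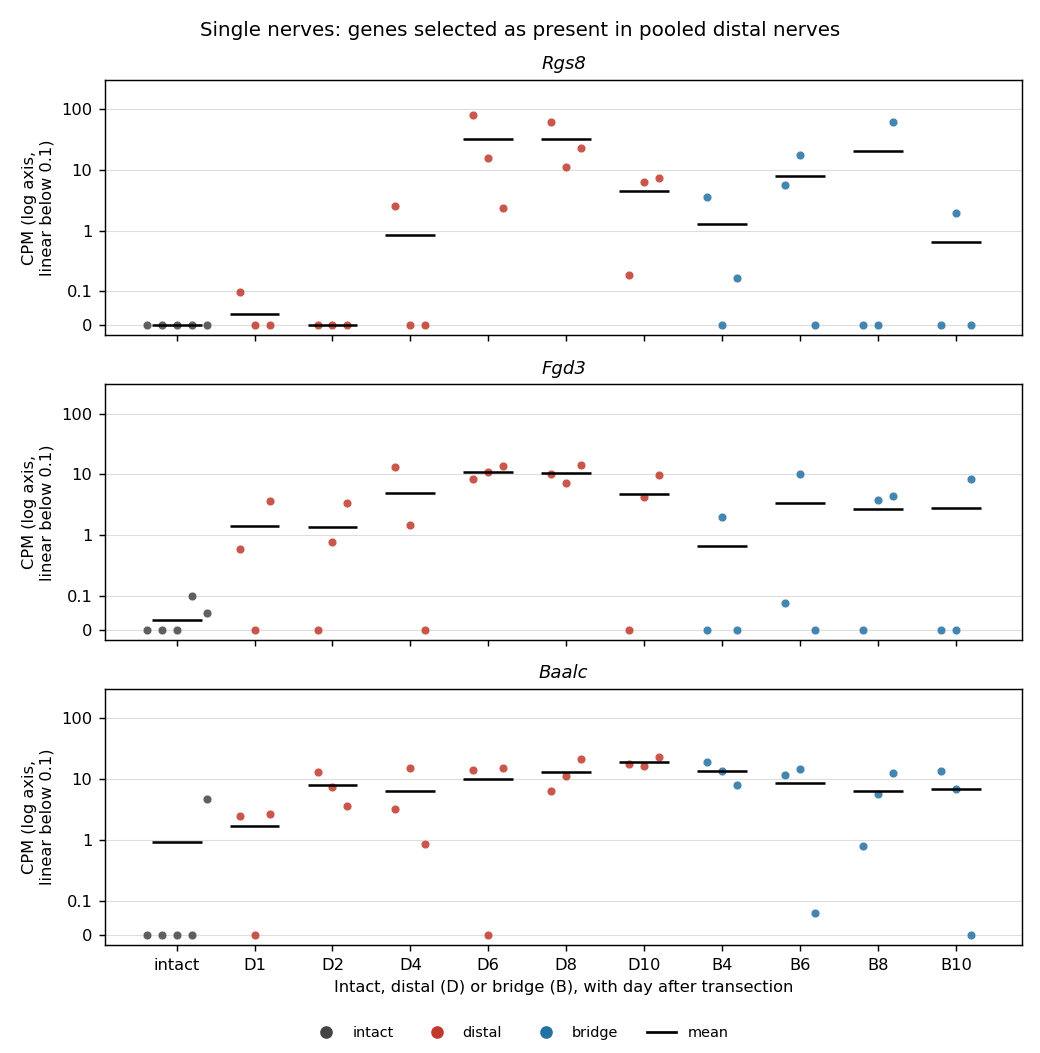
Levels of Rgs8, Fgd3 and Baalc (CPM, log axis that is linear under 0.1) in the 35 single-nerve libraries, by region and day, with 1 point per library and the bar at the group mean. Apart from 2 counts at day 1, Rgs8 appears from day 4 in dSCs and is in all 9 libraries of days 6 to 10, whereas Fgd3 and Baalc are present in dSCs of day 1.

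Mmd2 varied widely between the single-nerve iSC libraries, at 88.2, 129, 1.58, 50.8 and 3.82 CPM (mean 54.7 ± 55.0, SD, n = 5). In dSCs it was 0, 0 and 5.62 CPM at day 1, 0, 2.86 and 2.33 CPM at day 2, and 0 in all 3 libraries at day 4. It was 0, 0 and 17.1 CPM at day 6, 6.11, 3.56 and 0 CPM at day 8, and 0.564, 1.61 and 2.06 CPM at day 10. Mmd2 was thus low from the first day sampled, and only day 4 lay wholly below the iSC libraries, since 2 of these were themselves under 4 CPM.

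Over all dSCs the summed level of Mmd2 was 13.4-fold below that of iSCs, and at least 530-fold below at day 4. The distal average, in which day 4 had no count, passed as lower with an edgeR adjusted p of 0.0173, and DESeq2 gave an adjusted p of 0.00118. The highest iSC values were those of libraries 0 and 1, which had few detected genes. Without the 4 libraries of few genes the edgeR adjusted p was 0.214, and with 1 term per region 0.0592. An exact permutation test gave a difference of -4.97 in mean log2 CPM and p = 0.00244, 18 against 5 libraries.

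In bSCs Mmd2 was 0.42, 0 and 0 CPM at day 4, 0, 4.13 and 6.69 CPM at day 6, 0, 0 and 3.6 CPM at day 8, and 0, 0 and 17.4 CPM at day 10. The bridge average fell by 5.29 on the log2 scale (SE 1.6, edgeR adjusted p = 0.0359), and the adjusted p was 0.0841 with 1 term per region and 0.218 without the 4 libraries of few genes. For 12 against 5 libraries the exact permutation test gave a difference of -5.23 and p = 0.00582.

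Lrrtm4 was present in all 5 single-nerve iSC libraries, at 50.6, 37.3, 16.2, 44.3 and 14.2 CPM (mean 32.5 ± 16.5, SD, n = 5). In dSCs it was 1.58, 28.7 and 11.7 CPM at day 1, 0, 2.03 and 4.21 CPM at day 2, and 2.38, 0.259 and 0 CPM at day 4. It was 0, 0 and 23.8 CPM at day 6, 2.55, 19.3 and 4.81 CPM at day 8, and 11.8, 5.48 and 0.0624 CPM at day 10. The libraries of days 2, 4 and 10 all lay below the iSC libraries, while day 1 and single libraries of days 6 and 8 reached into their range. Lrrtm4 was present in 14 of 18 dSC libraries, whereas it had no count in pooled dSCs.

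The summed level of Lrrtm4 was 3.92-fold below that of iSCs over all dSCs and 25.2-fold below at day 4. The distal average was -2.79 on the log2 scale (SE 1.22, edgeR adjusted p = 0.208). The edgeR adjusted p was 0.0434 without dSC library 3 of day 6, which left the dSCs of that day at 0. The exact permutation test gave a difference of -3.89 in mean log2 CPM and p = 0.00125, 18 against 5 libraries.

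In bSCs Lrrtm4 was 0.0841, 0.386 and 0 CPM at day 4, 0, 0 and 32.6 CPM at day 6, 16.8, 0 and 0.141 CPM at day 8, and 53.4, 29.4 and 0.107 CPM at day 10. A pair of bridge libraries of day 10 thus lay within or above the range of iSCs. The edgeR adjusted p of the bridge average was 0.177, and 0.0279 without bSC library 3 of day 6, which left the bSCs of that day at 0. By exact permutation of 12 against 5 libraries the difference was -4.75 and p = 0.0223.

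Several of the injured libraries with a high level of Lrrtm4 also held more myelin transcripts than others of their day. Library 3 of day 6, from the same animal in both regions, held 23.8 CPM of Lrrtm4 and 17.1 CPM of Mmd2 in dSCs, and 32.6 and 6.69 CPM in bSCs. The sum of myelinating SC markers was 2327 CPM in that dSC library, against 1178 and 1060 CPM in the others of day 6, and 4863 CPM in that bSC library, against 523 and 966 CPM. Its macrophage sum was 1828 CPM in dSCs, against 8414 and 9533 CPM. The bSC libraries of day 10 with 53.4 and 29.4 CPM of Lrrtm4 held 3671 and 2340 CPM of myelin markers, against 1412 CPM in the other, which was the bSC library with the most Mmd2 (17.4 CPM). Day 1 went the other way. Its dSC library with the most Lrrtm4 (28.7 CPM) held 7876 CPM of myelin markers, against 11057 CPM in the library with 11.7 CPM of Lrrtm4. The part of these markers in the levels of Mmd2 and Lrrtm4 was not tested.

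Fgf4 was at 0 in 3 of the 5 single-nerve iSC libraries and at 4.68 and 0.867 CPM in libraries 4 and 5. At day 1 all 3 dSC libraries held it, at 2.48, 12.8 and 7.43 CPM. In the 15 dSC libraries of days 2 to 10 it was at 0 except for 0.0624 CPM, a single count, in library 3 of day 10, and it was at 0 in all 12 bSC libraries. In single nerves Fgf4 was therefore highest at day 1 after the cut, and its high level in pooled iSCs was seen in no single-nerve iSC library.

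The summed level of Fgf4 at day 1 was 4.65-fold that of iSCs, and that of days 2 to 10 was 344-fold below iSCs (60.4 to 13697). The edgeR test of the distal average passed as lower with an adjusted p of 0.0349. This average weighs the days equally on the log scale, so that the days at 0 outweigh day 1. With 1 term per region Fgf4 was 0.181 higher in dSCs on the log2 scale with an edgeR adjusted p of 0.987, and DESeq2 gave an adjusted p of 0.647. By exact permutation the difference was -0.65 in mean log2 CPM and p = 0.533, 18 against 5 libraries.

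In bSCs the summed level of Fgf4 was at least 89.1-fold below that of iSCs. The bridge average, without a count in any bSC library, passed in edgeR with an adjusted p of 0.0143. It was 0.0358 with 1 term per region and 0.0519 without iSC library 4, which held most of the iSC counts. With all bSC libraries at 0, these calls are no support for a change. Exact permutation, 12 against 5 libraries, gave -1.61 and p = 0.147.

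Extl1 was at 0 in 4 of the 5 single-nerve iSC libraries and at 2.80 CPM in library 4. In dSCs it was 0, 0.0636 and 0.313 CPM at day 2, 0, 0 and 20.6 CPM at day 4 and 0, 0 and 3.08 CPM at day 8, and 0 in every library of days 1, 6 and 10. Among bSCs only library 0 of day 4 held it, at 2.10 CPM. Over all dSCs the summed level of Extl1 was 1.58-fold that of iSCs, mostly from dSC library 2 of day 4. Its edgeR adjusted p was 0.325 in the distal average and 0.114 in the bridge average. An exact permutation test gave a difference of -0.10 and p = 1.0 for 18 dSC against 5 iSC libraries, and -0.55 and p = 0.588 for 12 bSC against 5 iSC libraries.

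**Figure D3:**
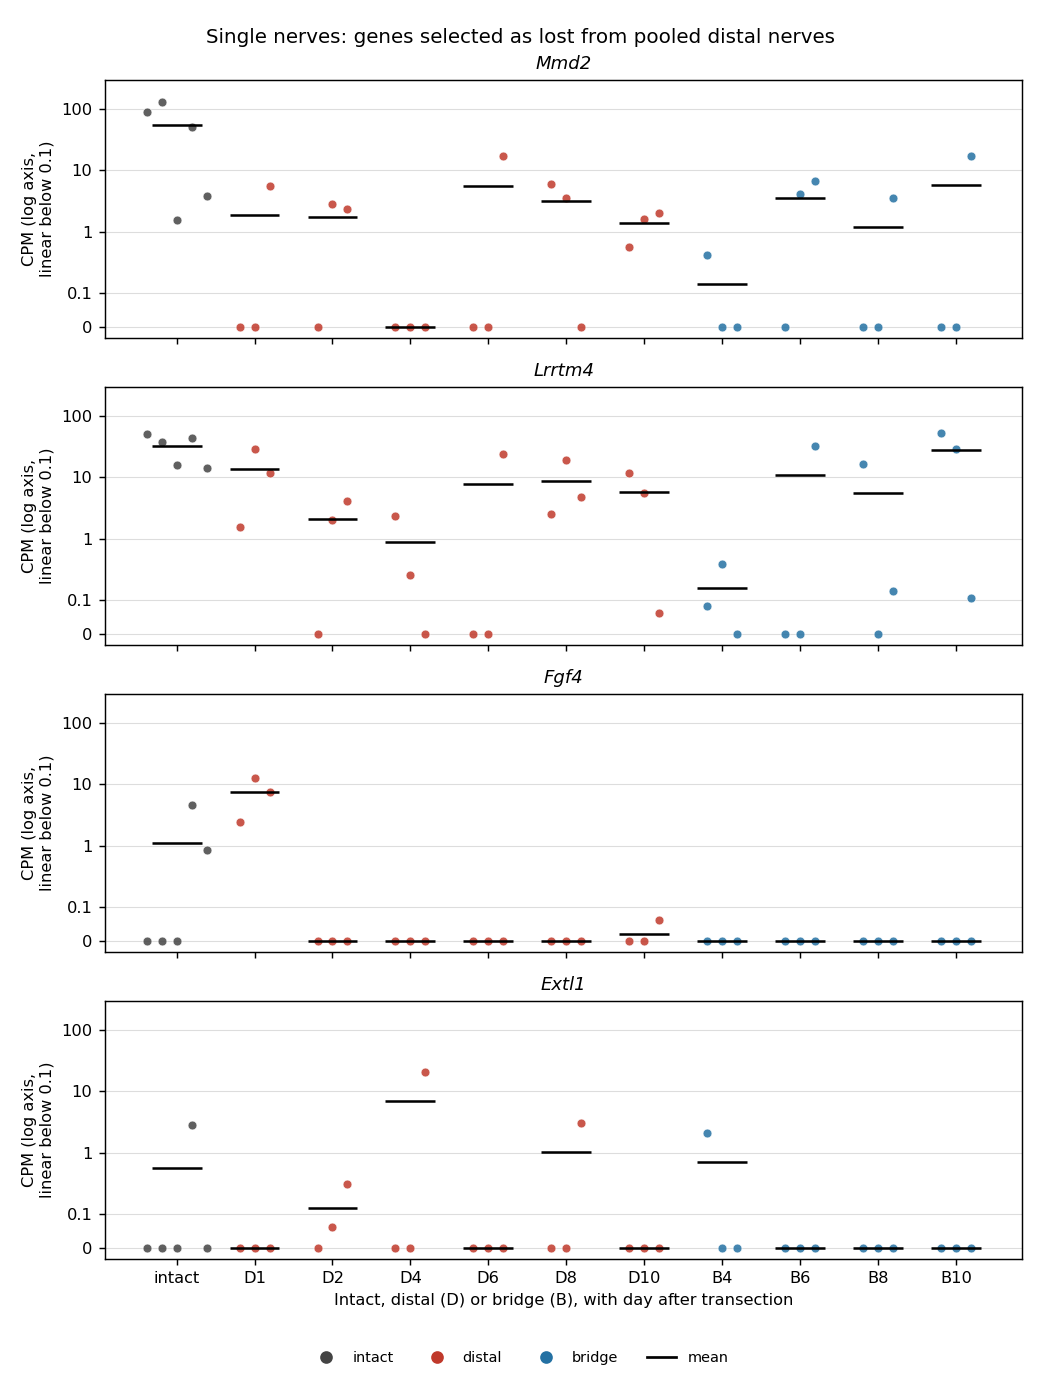
Levels of Mmd2, Lrrtm4, Fgf4 and Extl1 (CPM, log axis that is linear under 0.1) in the 35 single-nerve libraries, by region and day, with 1 point per library and the bar at the group mean. Fgf4 is highest in dSCs of day 1, and Mmd2 and Lrrtm4 are low at day 4 and present in some later libraries.

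Pooled and single-nerve iSCs thus held Mmd2 and Lrrtm4 at means of the same order (90.9 and 54.7 CPM, and 66.8 and 32.5 CPM), but not Fgf4 and Extl1. Mmd2 ran from 40.7 to 196 CPM in the pooled and from 1.58 to 129 CPM in the single-nerve iSC libraries. Lrrtm4 ran from 10.8 to 140 CPM and from 14.2 to 50.6 CPM. For Fgf4 the pooled iSC libraries ran from 23.2 to 47.3 CPM and the single-nerve iSC libraries from 0 to 4.68 CPM. For Extl1 they ran from 8.79 to 25.6 CPM and from 0 to 2.80 CPM. The marker sums of iSCs also differed between the experiments: 412 to 606 CPM pooled and 52.7 to 161 CPM in single nerves for the SC lineage, 27128 to 68627 CPM and 6887 to 32948 CPM for myelinating SCs, and 116 to 506 CPM and 1290 to 3080 CPM for endothelial cells. The experiments also differed in input. A pooled library held the nerves of 3 mice, and the paper accepted less RNA for a single-nerve library. They were normalized separately, so that these values stand side by side without a test. The part of the markers and of the input in them was not tested.

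When the 11 single-nerve groups were ordered by their mean, no neighbours in the order were separated in any of the 7 genes. The top groups were dSCs of days 8 and 6 for Rgs8 (31.9 CPM in both), dSCs of days 6 and 8 for Fgd3 (11.04 and 10.52 CPM), and dSCs of day 10 and bSCs of day 4 for Baalc (19.3 and 13.7 CPM). They were iSCs and bSCs of day 10 for Mmd2 (54.7 and 5.80 CPM) and for Lrrtm4 (32.5 and 27.6 CPM). Fgf4 was led by dSCs of day 1 and iSCs (7.58 and 1.11 CPM), and Extl1 by dSCs of day 4 (6.87 CPM).

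Differences among the 6 dSC days passed for 0 of the 7 genes, where 0.0644% of all genes passed. The lowest unadjusted edgeR p were 0.00221 for Fgf4 (adjusted p = 0.382), 0.0094 for Rgs8 (adjusted p = 0.566) and 0.0358 for Extl1 (adjusted p = 0.692). The region by day interaction passed for 0 of the 7 and for 0% of all genes in edgeR, where 488 genes had an unadjusted p under 0.05 and DESeq2 passed 6 genes.

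Bridge and distal stump were compared over days 4 to 10. In edgeR 0 of the 7 genes passed, where 0.103% of all genes did. The bridge average minus the distal average was -1.81 for Fgd3 (SE 1.24), -1.24 for Rgs8 (SE 1.22), -0.40 for Baalc (SE 0.99) and -0.10 for Lrrtm4 (SE 0.99) on the log2 scale, and the lowest edgeR adjusted p was 0.813, that of Fgd3. The nearest to a separation was Fgd3. In the 10 animals with a library from both regions, Fgd3 was lower in bSCs in 8, higher in 1 and absent from both in 1, with a mean difference of -2.73 in log2 CPM (exact sign-flip permutation test, two-sided p = 0.0195).

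Rgs8 was lower in bSCs in 5 of the 10 animals and higher in 4, with a mean difference of -2.57 (exact sign-flip permutation test, p = 0.0625). In dSCs and bSCs of one animal it stood at 78.0 and 5.61 CPM (library 0 of day 6), and in another at 22.7 and 60.1 CPM (library 2 of day 8). Baalc was lower in bSCs in 7 and higher in 3 (exact p = 0.645). Mmd2 and Lrrtm4 were each higher in bSCs in 4 animals, lower in 3 and equal in 3 (exact p = 0.781 and 0.266). Fgf4 and Extl1 were equal, at 0 in both, in 9 and 7 animals (exact p = 1.0 and 0.5). In all, 21 such exact tests were made on the 7 genes over 3 comparisons, and their p-values are not adjusted.

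**Figure D4:**
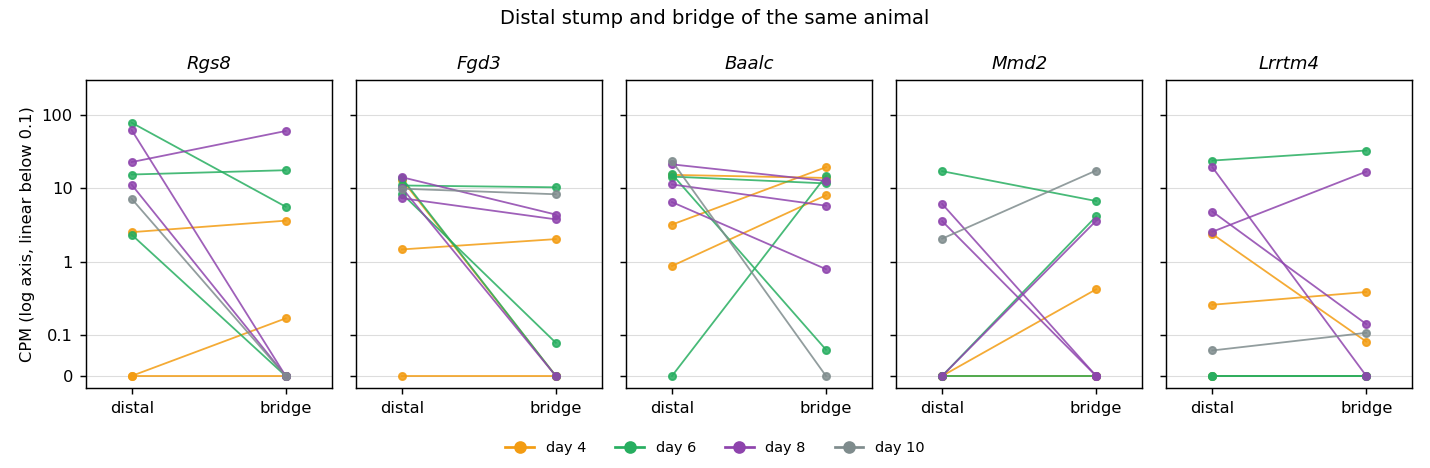
Levels of Rgs8, Fgd3, Baalc, Mmd2 and Lrrtm4 (CPM, log axis that is linear under 0.1) in dSCs and bSCs of the 10 animals with a library of each, with a line joining the libraries of an animal. Fgd3 falls from dSCs to bSCs in 8 of 10 animals, rises in 1 and is absent from both in 1.

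Among the 30 injured single-nerve libraries, Rgs8 had a count in 17, Fgd3 in 20 and Baalc in 27. Of the 17 libraries with Rgs8, 13 held Fgd3 and 16 held Baalc, and of the 20 with Fgd3, 18 held Baalc. Mmd2 had a count in 14 and Lrrtm4 in 22, and 13 held both. Fgf4 (4 libraries) and Extl1 (5 libraries) were never found in the same injured library.

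The genes whose log2 CPM followed each member most closely over the 35 single-nerve libraries are given as a description, since these libraries also share differences in depth and in cell makeup. For Rgs8 they were Gad2 (Pearson r = 0.82), which makes GABA, Kcns1 (r = 0.80), a potassium channel subunit, and Gria1 (r = 0.78), an AMPA receptor subunit. For Fgd3 they were 2310039L15Rik (r = 0.73), Cd22 (r = 0.72), a B cell lectin, and Pik3r5 (r = 0.70), a regulatory subunit of PI3 kinase gamma. For Baalc they included 2510039O18Rik (r = 0.75) and Matk (r = 0.72), a kinase of blood cells.

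For Mmd2 the closest were Ccdc13 (r = 0.81), Rxrg (r = 0.71), a retinoid X receptor, and Tm7sf3 (r = 0.68). For Lrrtm4 they were Smim5 (r = 0.81), Smco3 (r = 0.81) and Art3 (r = 0.78), an ADP-ribosyltransferase family member. Cd22, Pik3r5 and Matk, whose levels followed Fgd3 or Baalc, are known mainly from blood cells. With Spearman's correlation in place of Pearson's, 0 of the 3 genes most like Baalc and 1 of the 3 most like Fgd3 stayed on the list. Fgf4 and Extl1 had counts in 6 of the 35 libraries each, too few for such a comparison.

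Relatives of the members were examined in the single nerves as lists, read against a median over all genes of -0.11 on the log2 scale in the distal average. Of 7 tested R4 RGS proteins, the subfamily of Rgs8, 2 passed as higher in dSCs and 0 as lower, with a list median of 1.42, where 4.29% of all genes passed in either direction. Rgs2 rose from 19.02 ± 9.51 to 111 ± 42.3 CPM (SD, n = 5 and 18; log2 change 2.51, edgeR adjusted p = 0.00114). Rgs1 rose from 0.509 ± 0.73 to 51.3 ± 51.4 CPM (edgeR adjusted p = 0.0296). Of 5 FGD exchange factors related to Fgd3, 0 passed (list median 0.92), with 0.105 as the adjusted p of Fgd3 itself.

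Of 9 tested PAQR proteins, the family of Mmd2, 1 passed. Paqr6, a membrane progestin receptor, fell from 169 ± 116 to 19.98 ± 12.7 CPM (SD, n = 5 and 18; log2 change -3.22, edgeR adjusted p = 0.000765), in the same direction as Mmd2. Of 7 LRRTM proteins and partners, 0 passed in dSCs (list median -1.37). Of 11 tested heparan sulfate enzymes, the class of Extl1, 0 passed (list median 0.33).

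Of 12 tested FGF ligands other than Fgf4, 1 passed as higher and 2 as lower in dSCs (list median -0.15). Fgf5 rose from 0.855 ± 1.83 to 26.5 ± 29.7 CPM (SD, n = 5 and 18; log2 change 4.54, edgeR adjusted p = 0.0347). Fgf2 and Fgf12 were low throughout, at means of 1.88 and 1.59 CPM in iSCs and 0.11 and 0.227 CPM in dSCs. They passed in edgeR with adjusted p of 0.0352 and 0.0411, but not with 1 term per region (0.163 and 0.453). Of 6 tested FGF receptors 0 passed (list median -0.01). In bSCs against dSCs 0 genes of any of these 7 lists passed, where the background is the 0.103% given above.

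The nearest genes on either side of each member were read in the same fit. Of 14 neighbours 11 could be tested and 1 passed in dSCs against iSCs, where 4.29% of all genes passed: Npl, a sialic acid lyase whose gene lies 103311 bases to the left of Rgs8. Npl rose from 2.58 ± 3.44 to 60.8 ± 37.6 CPM (SD, n = 5 and 18; log2 change 4.36, edgeR adjusted p = 0.00058). Rgs16, another R4 RGS gene 42682 bases to the right of Rgs8, did not pass (edgeR adjusted p = 0.533). Fgf3 and Fgf15, the neighbours of Fgf4 at 16950 and 31289 bases, were low throughout. Fgf15 had no count, and Fgf3 reached 0.227 CPM in pooled iSCs and 1.90 CPM in 1 single-nerve dSC library.

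Susd3 and Bicd2 beside Fgd3, Atp6v1c1 and Fzd6 beside Baalc, Radil and Wipi2 beside Mmd2, Mrpl19 beside Lrrtm4, and Slc30a2 and Pafah2 beside Extl1 did not pass, and Reg3g beside Lrrtm4 had no count. Pafah2, 12470 bases from Extl1, held 18.3 ± 4.80 CPM in pooled iSCs and 21.8 ± 7.23 CPM in pooled dSCs (SD, n = 4), where Extl1 went from 18.3 CPM to 0.

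Promoter windows of RefSeq (GRCm38.p6, 250 bases before to 50 after a start) were searched on both strands for letters bound by factors known in SCs: TGANTCA for AP-1, ACAANG for SOX, GCGNGGGCG for EGR, CACGTG for E-box proteins and GGAATG for TEAD. These letters were found in 7.81%, 41.2%, 5.55%, 7.15% and 14.7% of 32851 windows. Of 9 windows of 6 members (Baalc had none), 2 held a match. They are shown because they are the only windows of the 7 genes with any of these letters, with the matches in capitals.
Mmd2, chr5:142608703-142609002, minus strand: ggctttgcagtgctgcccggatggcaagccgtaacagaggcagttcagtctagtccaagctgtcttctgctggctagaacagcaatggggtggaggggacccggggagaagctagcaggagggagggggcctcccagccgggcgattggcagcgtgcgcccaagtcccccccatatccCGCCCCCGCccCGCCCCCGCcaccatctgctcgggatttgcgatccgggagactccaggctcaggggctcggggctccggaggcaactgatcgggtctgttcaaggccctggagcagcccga
Rgs8, chr1:153652787-153653086, plus strand: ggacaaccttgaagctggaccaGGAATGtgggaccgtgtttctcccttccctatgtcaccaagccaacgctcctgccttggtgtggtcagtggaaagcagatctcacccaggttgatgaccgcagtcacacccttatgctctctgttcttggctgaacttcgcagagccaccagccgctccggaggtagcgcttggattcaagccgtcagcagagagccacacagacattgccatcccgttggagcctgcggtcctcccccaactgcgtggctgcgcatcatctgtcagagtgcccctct
The Mmd2 window held the EGR letters at 2 places, 72 and 61 bases before the start and on the opposite strand, and 0.813% of all windows held them at 2 or more. The Rgs8 window held the TEAD letters 228 bases before the start. The matches did not overlap each other, they are letters and not bound sites, and these data did not measure binding.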

How the data were processed

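Reads were aligned by the authors to mm9 with TopHat2 2.0.11, and the deposited files hold raw HTSeq counts per gene. The cDNA had been made by Smart-seq2 from sorted cells and given to a kit that does not mark strand. HTSeq's own categories were set aside (reads on no feature were 52.5% to 60.6%), ERCC spike-ins were left out, and lanes of a library were summed. Depth is given in the report. Groups came from the labels. The rat libraries were not used here.

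Calculations were made in R 4.3.3 with edgeR 4.0.16, in 1 fit of the 35 single-nerve libraries with 1 term per region and day. Settings were TMM, filterByExpr with its minimum of 10 counts, the quasi-likelihood test, Benjamini-Hochberg over 15519 genes and a threshold of 0.05. The fit had first been tried on simulated data, in which no gene was set to 0 in a whole group, so that case was not covered. Exact permutation tests used scipy 1.17.1 on log2 CPM with a prior count of 2. The study's filter (100 counts in 85% of libraries) left 7171 genes and 0 of the 7, so it was an alternative. Where a gene was at 0 in every library of a day, its fitted average over days depended on the prior count, so that only its test is given, and for Rgs8 in dSCs no estimate was obtained. The fit with 1 term per region, the permutation tests and the fit without the 4 libraries of few genes were therefore added after seeing the data.

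The members, relatives and markers were chosen with earlier results of these data known. Named were the members, relatives that passed in dSCs against iSCs or in bSCs against dSCs, nearest neighbours and the 3 genes most like each member (members with a count in at least 10 libraries), of which 1 is not reported here. Other alternatives were DESeq2 1.42.0, its size factors, no filter, only the groups compared, the animal as a block, and leaving out each library. Labels paired bSC and dSC libraries of 10 animals. They did not state whether single-nerve iSC libraries shared animals with injured ones, so comparisons with iSCs treated these libraries as independent. Deviations from the group means correlated by 0.157 on average within animals (-0.0624 to 0.677) and by -0.0834 between animals of the same day. In 1 bSC library of day 10 the title and source name carried different numbers, and its animal was left out of the pairs. The p-values measure the spread between these libraries. Protein sequences were not used here. Gene positions are those of GENCODE on NCBIM37, the Ensembl name of mm9.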

Additional observations from a re-analysis of the deposited data

Results flagged for a closer look

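In each group of 4 or 5 libraries the highest and lowest values were held against Dixon's critical value for the gap to the next library over the whole range. In groups of spread values chance exceeds it in about 1 in 20, a rate that does not hold for groups mostly at 0 or for the pooled groups on which the genes were chosen, so that the following is a description. Of 18 groups of the 7 genes whose values were not all equal, 7 held such a library. In the pooled libraries they were a bSC library with 0.366 CPM of Fgd3 (the next had 0.0448 CPM), a dSC library with only 5.51 CPM of Baalc (next 19.5 CPM), a bSC library with 13.7 CPM of Mmd2 (next 0.0859 CPM) and an iSC library with only 23.2 CPM of Fgf4 (next 44.6 CPM). Among the single-nerve iSCs they were a library with 4.69 CPM of Baalc (next 0), a library with 4.68 CPM of Fgf4 (next 0.867 CPM) and a library with 2.80 CPM of Extl1 (next 0). The iSC libraries of Fgf4 and Extl1 were the same, library 4, and that of Baalc was library 5.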

How the results depend on the processing

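The counts of members passing changed with the processing. With DESeq2 they were 3 in the distal average (Rgs8, Fgd3 and Mmd2), 1 at day 1, 3 at day 4, 2 at day 6, 2 at day 8, 1 at day 10 and 2 in the bridge average. Over all genes DESeq2 passed 1129 in the distal and 2089 in the bridge average. With 1 term per region 0 members passed in the distal and 1 in the bridge average, where 358 and 996 genes passed. Without the 4 libraries of few genes 0 and 1 members passed, where 279 and 1186 of 16010 genes passed. DESeq2's size factors and no filter left each count of members as it was. So did only the groups compared, which was run for the distal average and for bSCs against dSCs. The study's filter tested no member. With the animal as a block, 0 members and 0 genes passed in bSCs against dSCs, as against 0 members and 16 genes without the pairing. Leaving out each library gave 1 to 3 members in the distal average, 0 to 3 in the bridge average, 0 to 1 at days 4, 6 and 10 and 0 elsewhere. Over all genes the distal average passed 665 genes, 1129 with DESeq2 and 304 to 768 with a library left out. The cause of these changes was not tested.

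Mmd2 stayed called in the distal average in 22 of 23 such refits, lost without iSC library 1 (adjusted p = 0.0603), and Fgf4 in 6 of 23. In the bridge average Fgf4, at 0 in every bSC library, stayed called in 16 of 17. Rgs8, at 0 in every iSC library, and Mmd2 did so in 5 of 17 each. Baalc passed at days 4, 6 and 10 only without iSC library 5, which left every iSC library at 0 for Baalc. Changes of sign were seen with 1 term per region for Fgf4 (0.181) and Extl1 (1.23) in the distal average and Lrrtm4 (0.86) in bSCs against dSCs. With a library left out, the fitted log2 change of Extl1 ran from -4.25 to 3.45 in the distal and from -6.10 to 1.61 in the bridge average. In bSCs against dSCs it ran from -4.07 to 0.42 for Rgs8, -1.33 to 3.34 for Mmd2, -2.74 to 2.32 for Lrrtm4 and -0.58 to 0 for Fgf4. These fitted changes depend on the prior count where a day is at 0. Of the 3 genes most like each member, at least 2 stayed at prior count 0.5, and with Spearman's correlation 2 for Rgs8 and Lrrtm4, 1 for Fgd3 and Mmd2 and 0 for Baalc. Of the 448 fitted changes with a library left out 390 kept direction and call. The floors given with the levels reflect depth only. A 0 can also stand for a transcript lost before sequencing, and such loss was not measured. Baalc, for example, had 240, 0 and 306 counts in the dSC libraries of day 6.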
